A study of Mus musculus with 36 samples.

Results

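The neurotrophins Bdnf and Ntf3, the factor Gdnf and their receptors Ntrk2, Ntrk3, Ngfr, Gfra1, Gfra2 and Ret were followed across 3 forebrain regions, 2 genotypes and 2 diets of a mouse model of multiple system atrophy (MSA), and in sorted microglia. These 9 genes were picked by their symbols out of the 24940 genes of the count table. MSA mice were males of the MBP29-hα-syn line, whose human alpha-synuclein transgene is driven by the myelin basic protein promoter, active in oligodendrocytes; control mice were males described as wild type. From 4 weeks of age mice of both genotypes were fed AIN-76A chow for 12 weeks, either containing PLX5622 at 1200 mg/kg or without it (called placebo chow here). PLX5622 blocks the CSF1 receptor, on which microglia depend. Each of the 4 groups (MSA on PLX5622, control on PLX5622, MSA on placebo chow, control on placebo chow) gave 3 cortex libraries. Corpus callosum had 3 libraries from control mice on placebo chow and 2 in each of the other groups. Striatum had 3 from MSA mice on placebo chow and 2 in each of the other groups. Microglia, gated as CD11b-positive and CD45-low, came from forebrains of 16-week-old mice with no diet arm, with 3 libraries from MSA mice (labelled MBP29_homo) and 3 from control mice. The microglia controls are labelled MBP29_het, whereas the protocol text speaks of wild-type mice.

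Neurotrophins act through Trk receptor tyrosine kinases: the product of Bdnf binds TrkB (Ntrk2), and that of Ntf3 binds TrkC (Ntrk3), while the p75 receptor (Ngfr) binds all neurotrophins and their precursors. GDNF binds the co-receptor GFRα1 (Gfra1), which then activates the tyrosine kinase Ret; GFRα2 (Gfra2) is the preferred co-receptor of the related ligand neurturin. In the forebrain, cortical neurons are a main source of BDNF and send it along their axons to the striatum, whose neurons make little of it.

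The 30 bulk libraries held 4.36 to 28.6 M counts assigned to genes (M stands for 1e+06) and the 6 microglia libraries 5.95 to 12.1 M. Of the bulk libraries, 6 had under 70% of their total assigned. The summed level of 10 microglial marker genes, in counts per 1e+06 assigned counts (CPM), was 127 to 279 in MSA mice on PLX5622 and 13.1 to 34.6 in control mice on PLX5622, against 469 to 978 in mice on placebo chow. The control striatum libraries titled PLX carry a no-treatment tag; their microglial sums were 18.9 and 13.8 CPM. MSA striatum placebo library 1 stood apart, with 1052 CPM for 9 cortical glutamatergic neuron markers against 85.5 to 202 CPM in the other 8 striatum libraries. Which libraries share an animal is not labelled; the p-values therefore reflect only how much libraries differ, part of which may be technical. The fits used edgeR's quasi-likelihood test with Benjamini-Hochberg adjustment over all genes tested, and a gene was called at an adjusted p under 0.05.

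Scaled by transcript length, Ntrk2 had the highest median of the 9 genes in every region and Ntrk3 the next; Bdnf was mid-list in cortex and corpus callosum, as was Gdnf in striatum. In cortex the median levels in CPM per kb were 74.3 for Ntrk2, 22.0 for Ntrk3, 21.8 for Gfra2, 7.34 for Gfra1, 5.11 for Bdnf, 0.925 for Ntf3, 0.819 for Ngfr, 0.769 for Ret and 0.101 for Gdnf. Ntrk3 was above Gfra2 in only 4 of the 12 cortex libraries. The neighbours Ntrk3 and Gfra2, Gfra1 and Bdnf, and the genes from Ntf3 to Gdnf overlapped in range, whereas Ntrk2 stood clear of Ntrk3, Gfra2 of Gfra1 and Bdnf of Ntf3. In corpus callosum the order was Ntrk2 (81.7), Ntrk3 (17.9), Gfra2 (14.5), Gfra1 (10.2), Bdnf (3.20), Ngfr (3.13), Ret (1.01), Ntf3 (0.646) and Gdnf (0.380), in CPM per kb. Only Ntrk2 and Ntrk3, and Gfra1 and Bdnf, were neighbours without overlap there. In striatum the order was Ntrk2 (71.6), Ntrk3 (26.4), Gfra1 (13.5), Gfra2 (2.78), Gdnf (1.59), Ngfr (1.19), Ret (0.315), Bdnf (0.203) and Ntf3 (a median of 0), in CPM per kb. From Ntrk3 downward every striatal neighbour overlapped the next in range.

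**Figure D1:**
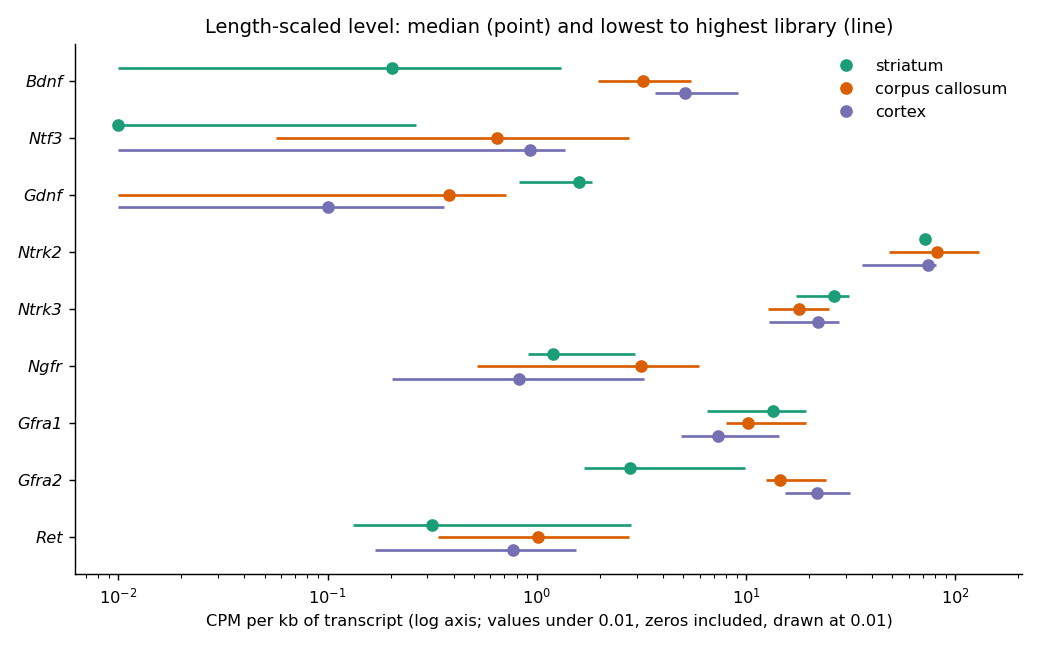
Level of each gene in CPM per kb of its listed transcript, on a log axis, in striatum (9 libraries), corpus callosum (9) and cortex (12); points are medians and lines run from the lowest to the highest library. The Ntrk2 medians lie between 71.6 and 81.7 in all 3 regions, whereas the Bdnf median is 0.203 in striatum, 3.20 in corpus callosum and 5.11 in cortex.

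Some members were too low to read. Gdnf did not pass the filter on low counts in cortex, where it had 0 to 11 counts a library and none in 3 of 12. Ntf3 did not pass in striatum, where it had 0 to 4 counts a library and none in 6 of 9. In microglia 7 of the 9 failed and only Ntrk2 and Gfra2 were tested. All 9 passed in corpus callosum and in the fit over the 30 bulk libraries, where Gdnf passed through striatum and corpus callosum and Ntf3 through cortex and corpus callosum, the regions where each is high. Their tests against the low region are therefore given as a description. In striatum Bdnf passed only through MSA mice on placebo chow. They had 12 to 32 counts a library, against 0 to 9 in the other groups. Striatal tests of Bdnf that use this placebo group, the region contrasts of striatum included, are likewise a description.

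Bdnf separated the striatum from the other regions. Its lowest, median and highest levels were 0, 0.814 and 5.20 CPM in the 9 striatum libraries, against 7.83, 12.8 and 21.8 CPM in the 9 of corpus callosum and 14.7, 20.5 and 36.7 CPM in the 12 of cortex. No striatum library reached the lowest library of either other region, and 6 of 9 corpus callosum libraries were below all of cortex. The log2 change was -4.79 ± 0.33 (SE) for striatum against cortex (adjusted p = 5.53e-11), -3.95 ± 0.34 for striatum against corpus callosum (adjusted p = 5.69e-09) and -0.85 ± 0.24 for corpus callosum against cortex (adjusted p = 0.0102), all by edgeR. In bulk tissue, fewer cells of a type and less RNA per cell cannot be told apart. The highest striatal Bdnf value came from MSA striatum placebo library 1, the library with 1052 CPM of cortical neuron markers. Over corpus callosum those 9 markers summed to 1155 to 2119 CPM, against 1584 to 3137 CPM in cortex, so the tissue taken as corpus callosum held cortical neuron RNA as well as 7928 to 18509 CPM of 8 oligodendrocyte markers. The part of these markers in the Bdnf result was not tested.

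Bdnf is transcribed from several promoters that share a coding exon, and it is known for its response to neuronal activity. The RefSeq promoter table (GRCm38.p6) held 7 Bdnf promoters, of which 1 holds the CRE-like motif TCACGTCA (reverse strand TGACGTGA). That motif is present in 0.441% of the 32851 promoters in the table, and the palindromic CRE TGACGTCA in 1.79%. Neither was in the other 13 promoter windows found for 6 of the 9 genes. The 250 bases upstream of that start site, chr2:109692186-109692435 on the plus strand, are shown because Bdnf has the largest region difference of the 9 genes; capitals mark the motif.
Bdnf promoter: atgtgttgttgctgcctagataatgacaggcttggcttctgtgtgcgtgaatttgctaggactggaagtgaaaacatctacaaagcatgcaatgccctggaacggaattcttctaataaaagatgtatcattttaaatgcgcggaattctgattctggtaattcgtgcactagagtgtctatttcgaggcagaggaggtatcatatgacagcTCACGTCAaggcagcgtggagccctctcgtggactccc
The counts are per gene and do not say which promoter was used. The match is a description of these letters, not a site.

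Ntf3, whose product supports TrkC-expressing neurons, was also lowest in striatum. Its lowest, median and highest levels were 0, 0 and 0.355 CPM in striatum, 0.0760, 0.864 and 3.70 CPM in corpus callosum, and 0, 1.24 and 1.82 CPM in cortex. Because both MSA striatum PLX5622 libraries had no Ntf3 counts, the fitted change depends on the prior count and is not a bound, and the summed counts are given in its place. Summed over libraries, striatal Ntf3 was 0.0845 of the cortical level (95% exact interval 0.0331 to 0.181) and 0.107 of the callosal level (0.0422 to 0.228), intervals that cover counting error only. The fit on the 30 libraries, which Ntf3 entered through the other regions, gave adjusted p of 0.000332 for striatum against cortex and 0.00134 for striatum against corpus callosum by edgeR. Without the 6 libraries under 70% assigned, the second of these became 0.0754. Corpus callosum and cortex overlapped, with an adjusted p of 0.748.

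Gdnf, the ligand of the GFRα1 and Ret complex, ran the other way. From lowest to median to highest, its levels were 3.67, 7.09 and 8.19 CPM in striatum, against 0, 1.70 and 3.19 CPM in corpus callosum and 0, 0.45 and 1.62 CPM in cortex. Every striatum library was above every library of the other regions. Striatum was higher than corpus callosum by 2.20 ± 0.54 on the log2 scale (edgeR, adjusted p = 0.00293). Against cortex, where Gdnf is too low to pass the filter, summed counts are given: striatal Gdnf was 13.6 times the cortical level (95% exact interval 9.87 to 19.3) and callosal Gdnf 3.01 times (2.13 to 4.36), covering counting error only. The 30-library fit, which Gdnf entered through the other regions, called both by edgeR (adjusted p = 4.88e-06 for striatum and 0.0322 for corpus callosum), and 5 of 9 callosal libraries were above all of cortex. The callosal call rested on single libraries. Without control corpus callosum PLX5622 library 1 the log2 change was -0.05 (adjusted p = 0.809), against 1.67 with all libraries; the group then held 1 library, at 0 counts. The call was also lost without control cortex placebo 2, control cortex PLX5622 3, MSA cortex placebo 3, control corpus callosum placebo 1 or 3, MSA corpus callosum placebo 2 or MSA corpus callosum PLX5622 3 (adjusted p 0.0502 to 0.107). Markers of striatal projection neurons summed to 5733 to 9510 CPM in striatum, 366 to 2136 CPM in corpus callosum and 285 to 1066 CPM in cortex. Interneuron markers summed to 590 to 1502 CPM in striatum, 474 to 1034 CPM in corpus callosum and 631 to 987 CPM in cortex. The part of either list in the Gdnf values was not tested.

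**Figure D2:**
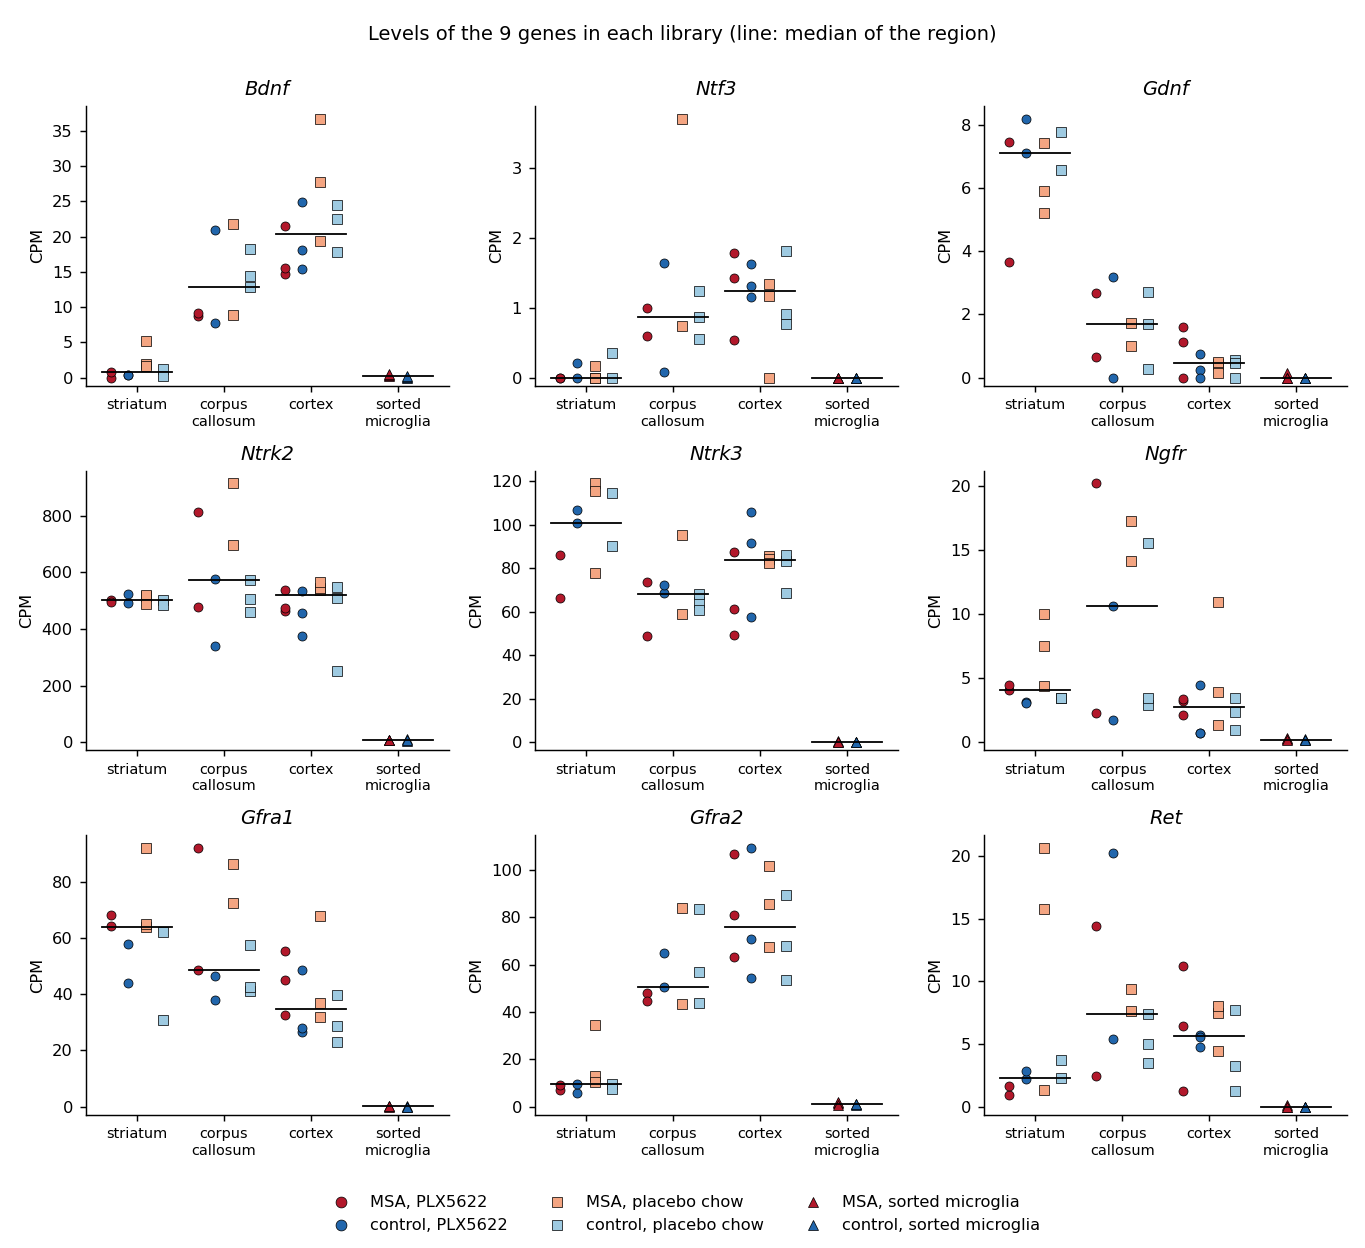
Level in CPM of each of the 9 genes in every library, by region and in sorted microglia, with the groups of each region side by side and a line at the region's median. Bdnf and Gfra2 are lower in striatum than in cortex, Gdnf is highest in striatum (3.67 to 8.19 CPM), and the microglia libraries lie near 0 for every gene but Ntrk2 (5.22 to 11.4 CPM) and Gfra2 (0.672 to 1.92 CPM).

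Ntrk2 encodes TrkB, the receptor of BDNF, and no region contrast of it was called with all 30 libraries. The lowest, median and highest libraries had 486, 502 and 524 CPM in striatum, against 340, 573 and 914 CPM in corpus callosum and 250, 521 and 566 CPM in cortex. The 9 striatum libraries were the tightest, and the lowest cortical value belonged to control cortex placebo library 3, with 60.1% of its total assigned. The log2 change was 0.05 ± 0.14 for striatum against cortex (edgeR, adjusted p = 0.816), -0.12 ± 0.15 for striatum against corpus callosum (adjusted p = 0.596) and 0.17 ± 0.14 for corpus callosum against cortex (adjusted p = 0.401). Without the libraries under 70% assigned, both contrasts with corpus callosum passed the threshold (adjusted p = 0.0195 for striatum and 0.0317 for cortex).

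Ntrk3 encodes TrkC, the receptor of neurotrophin-3. Its libraries had a lowest, median and highest level of 66.1, 101 and 119 CPM in striatum, 48.6, 68.2 and 95.3 CPM in corpus callosum, and 49.2, 83.8 and 106 CPM in cortex. Striatum was higher than corpus callosum by 0.62 ± 0.15 on the log2 scale (edgeR, adjusted p = 0.00198), with 5 of 9 striatum libraries above all callosal ones. The change was 0.28 ± 0.13 for striatum against cortex (adjusted p = 0.107) and -0.35 ± 0.14 for corpus callosum against cortex (adjusted p = 0.0565). DESeq2 called corpus callosum against cortex (adjusted p = 0.0420), and edgeR did so in 9 of the 30 fits that left out 1 library, at 0.0208 without control cortex PLX5622 2 up to 0.0483 without MSA striatum placebo 1. Striatum against cortex was called without MSA cortex PLX5622 3 (adjusted p = 0.0365).

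Both Trk genes make full-length receptors and forms without the kinase. The count table lists 1 transcript a gene, and for both it is a short form: NM_008745 for Ntrk2 (chr13:58806569-58937031, plus strand) codes for 476 residues and NM_182809 for Ntrk3 (chr7:78300691-78577838, minus strand) for 612, against 821 and 864 residues in the longest GENCODE forms on GRCm38. The listed and longest forms share 1394 coding bases in Ntrk2 and 1585 in Ntrk3 before they part. The bases around that point are shown because they decide what a Trk count can mean; lower case is the last stretch of shared coding sequence and capitals are the coding bases that belong to that form (the first 60 where there are more).
Ntrk2 listed form: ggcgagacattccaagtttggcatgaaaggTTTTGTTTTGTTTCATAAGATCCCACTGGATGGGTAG
Ntrk2 longest form: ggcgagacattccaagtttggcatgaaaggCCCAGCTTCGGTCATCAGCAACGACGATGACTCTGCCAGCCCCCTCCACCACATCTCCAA
Ntrk3 listed form: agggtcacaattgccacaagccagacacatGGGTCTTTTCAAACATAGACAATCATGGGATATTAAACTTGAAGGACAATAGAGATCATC
Ntrk3 longest form: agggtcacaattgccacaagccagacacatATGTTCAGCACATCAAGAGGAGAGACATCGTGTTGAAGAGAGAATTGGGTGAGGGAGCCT
The listed Ntrk2 form has 37 coding bases of its own, stop codon included, and the longest form 1072. Counts of the shared exons come from both forms, so the levels above cannot tell full-length from truncated TrkB or TrkC. Each listed transcript (7015 bases for Ntrk2, 3816 for Ntrk3) stops before the longest form does. Counts over it may therefore lean to the short form, by an amount not measured here.

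Ngfr encodes p75, which in the adult forebrain is known for its high level in cholinergic neurons of the basal forebrain. It had a lowest, median and highest level of 3.08, 4.06 and 10.0 CPM in striatum, 1.75, 10.6 and 20.2 CPM in corpus callosum, and 0.688, 2.78 and 11.0 CPM in cortex. Corpus callosum was higher than cortex by 1.58 ± 0.45 on the log2 scale (edgeR, adjusted p = 0.00982), with 4 of 9 libraries above all of cortex. The call was lost without control corpus callosum PLX5622 library 1 (1.10, adjusted p = 0.0760) or MSA corpus callosum PLX5622 library 3 (0.99, adjusted p = 0.0885). The striatum contrasts were not called, at 0.55 ± 0.46 against cortex (adjusted p = 0.370) and -1.04 ± 0.48 against corpus callosum (adjusted p = 0.103). Striatum against corpus callosum was called without MSA corpus callosum PLX5622 1 (adjusted p = 0.0427) and without the libraries under 70% assigned (0.0140). Callosal libraries differed widely in a cholinergic gene too, with 1.20 to 11.0 CPM of Chat, the acetylcholine-synthesising enzyme. The interneuron markers had a median of 748 CPM in corpus callosum and 829 CPM in cortex. Callosal medians were higher for choroid plexus (468 against 125 CPM), meningeal fibroblast (157 against 109 CPM) and ependymal markers (38.8 against 8.79 CPM). They were lower for astrocyte (5947 against 6504 CPM) and endothelial markers (65.0 against 105 CPM). Other lists went either way. The part of Chat or of any marker list in the Ngfr result was not tested.

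Gfra1, the GDNF co-receptor, was lowest in cortex. Its lowest, median and highest levels were 30.8, 64.0 and 91.9 CPM in striatum, against 37.9, 48.5 and 92.0 CPM in corpus callosum and 23.1, 34.8 and 67.9 CPM in cortex, so all 3 ranges overlapped. Striatum was higher than cortex by 0.59 ± 0.17 on the log2 scale (edgeR, adjusted p = 0.00801), and striatum and corpus callosum differed by 0.13 ± 0.19 (adjusted p = 0.637). Corpus callosum was higher than cortex by 0.47 ± 0.17 (adjusted p = 0.0427), a call lost with RLE size factors (adjusted p = 0.0509) and kept in only 13 of the 30 fits that left out 1 library; it was weakest without MSA corpus callosum PLX5622 library 3 (0.31, adjusted p = 0.186). Gfra1 overlaps the antisense gene Gm10007, which had at most 2.19 CPM in any library.

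Gfra2 resembled Bdnf in its order of regions. From lowest to median to highest, its levels were 5.84, 9.68 and 34.5 CPM in striatum, 43.3, 50.4 and 83.9 CPM in corpus callosum, and 53.5, 75.8 and 109 CPM in cortex. Striatum did not overlap either other region, and its highest value again came from MSA striatum placebo library 1. The log2 change was -2.98 ± 0.23 for striatum against cortex (edgeR, adjusted p = 3.48e-10), -2.37 ± 0.23 for striatum against corpus callosum (adjusted p = 4.20e-08) and -0.61 ± 0.20 for corpus callosum against cortex (adjusted p = 0.0253). The last call was lost without the libraries under 70% assigned (adjusted p = 0.0958), and without any 1 of control cortex PLX5622 3, control corpus callosum PLX5622 2, MSA corpus callosum placebo 2 and MSA corpus callosum PLX5622 1 (0.0504 to 0.0812).

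Ret, the signalling receptor of the GDNF family, was low and uneven. The lowest, median and highest libraries had 0.966, 2.31 and 20.6 CPM in striatum, 2.46, 7.38 and 20.2 CPM in corpus callosum, and 1.23, 5.63 and 11.2 CPM in cortex. No region contrast was called: the log2 change was -0.73 ± 0.46 for striatum against cortex (edgeR, adjusted p = 0.215), -1.20 ± 0.48 for striatum against corpus callosum (adjusted p = 0.0597) and 0.47 ± 0.42 for corpus callosum against cortex (adjusted p = 0.427). DESeq2 called striatum against corpus callosum (adjusted p = 0.0289), as did edgeR without the libraries under 70% assigned (0.0272) and without MSA cortex PLX5622 2, control corpus callosum PLX5622 2, MSA corpus callosum PLX5622 1 or MSA striatum placebo 2 (0.0294 to 0.0443).

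By count, 5 of the 9 members were called in each region contrast, Bdnf and Gdnf among them in all 3 and Ntf3 in both contrasts of striatum, so the counts are a description. For striatum against cortex 2 were higher and 3 lower, where 39.3% of the 16080 genes tested were called (18.6% higher, 20.6% lower). For striatum against corpus callosum 2 were higher and 3 lower, against 30.3% of all genes (12.9% higher, 17.4% lower). For corpus callosum against cortex 3 were higher and 2 lower, against 30.0% of all genes (15.9% higher, 14.1% lower). The median change of all genes was -0.04 for striatum against cortex and -0.11 for striatum against corpus callosum, so the callosal contrasts of striatum carry a small common shift. The members' medians were 0.05, -1.04 and 0.17 in the same 3 contrasts, beside a median of all genes of 0.00 in the last. These contrasts share libraries pairwise, so they are not separate evidence.

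**Figure D3:**
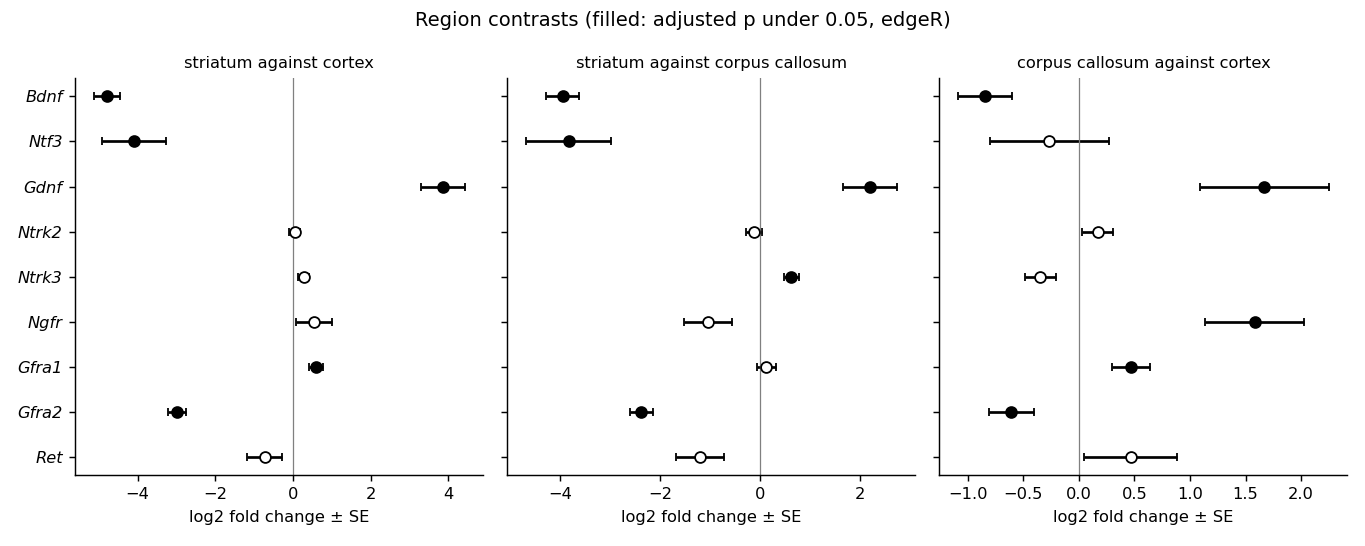
Log2 fold change of each gene with its standard error in the 3 region contrasts (edgeR, 30 libraries, averaged over the 4 groups of genotype and diet); filled points have an adjusted p under 0.05 and each panel has its own scale. Bdnf and Gfra2 are lower and Gdnf higher in striatum in both striatal panels, whereas Ntrk2 sits near 0 in all 3.

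Other genes of the pathway, 57 in number by list, also varied by region, and 53 of them passed the filter. For striatum against cortex 26 were called, 13 higher and 13 lower, where 39.3% of all genes were called. Among those with the smallest p were Mef2c, a transcription factor of activity-dependent genes (-1.96 ± 0.17), Rtn4r, the Nogo receptor that can pair with p75 (-4.68 ± 0.38), Pcsk1, a prohormone convertase (-1.50 ± 0.20), Lingo1, a partner of the Nogo receptor (-2.07 ± 0.29), and Pcsk5, another convertase (-1.33 ± 0.20), on the log2 scale. For corpus callosum against cortex 19 were called, 8 higher and 11 lower (30.0% of all genes), led by the adaptor Gab1 (1.76 ± 0.23), the phosphatase Ptpn11 (0.72 ± 0.11), Mef2c (-1.12 ± 0.16), the convertases Pcsk6 (0.92 ± 0.17) and Pcsk2 (-0.86 ± 0.17), and Lingo1 (-1.50 ± 0.29). For striatum against corpus callosum 20 were called, 10 higher and 10 lower (30.3% of all genes), led by Rtn4r (-3.16 ± 0.36), the adaptor Irs1 (-1.16 ± 0.17), Pcsk5 (-1.38 ± 0.21), the transcription factor Srf (0.85 ± 0.13), the CREB coactivator Crtc1 (1.05 ± 0.18) and Sorcs2, a p75 partner (1.72 ± 0.29). The medians of the 53 genes were -0.01, 0.00 and 0.00 in these contrasts, close to 0.

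Likeness of pattern was measured as Pearson's r of log2(CPM + 0.5) over the 30 bulk libraries, which share their regions, so it mostly follows the order of regions. The gene most like Bdnf was C1ql3 (r = 0.970), and the most like Gfra2 was Slc17a7 (0.979), the vesicular glutamate transporter that also stands in the list of cortical neuron markers. Gdnf was most like Ppp2r2a (0.946), followed by Penk, an enkephalin gene of striatal neurons (0.939). The leading genes for the others were Rgma for Ntrk2 (0.901), Adgrl2 for Ntrk3 (0.879), Cd81 for Ngfr (0.862), Lancl3 for Ret (0.832), Slc14a1 for Gfra1 (0.821) and Igfbp3 for Ntf3 (0.821). With each region's mean subtracted, the leading gene was the same for Bdnf (C1ql3, 0.768), Ntrk3 (Adgrl2, 0.829), Gfra1 (Slc14a1, 0.782) and Ntf3 (Igfbp3, 0.648). It was Sh3rf2 for Gdnf (0.772), Dock1 for Ntrk2 (0.907), Apoe for Ngfr (0.824), Car10 for Gfra2 (0.878) and Sox18 for Ret (0.835). Ntf3 had 0 to 27 counts a library and a mean under 1 CPM, so its likeness is weakly measured.

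The diet comparisons set PLX5622 against placebo chow. Microglial marker RNA was only partly lost in MSA mice on PLX5622, with 127 to 279 CPM left, and cells were not counted in these data. No member was called in any region by edgeR, and the largest shifts were in the striatum of MSA mice. In cortex, with 8 members tested, 0 were called in MSA mice (0.0548% of all genes called; 1 member, Bdnf, had an unadjusted p under 0.05, as did 4.54% of all genes) and 0 in control mice (0.527%; 0 members). In corpus callosum, with 9 tested, 0 were called in MSA mice (0.0693%; 0 members under 0.05) and 0 in control mice (0.460%; 0 members). In striatum, with 8 tested, 0 were called in MSA mice (0.0740%; 3 members under 0.05, as were 13.8% of all genes) and 0 in control mice (0.336%; 0 members). DESeq2 called 1 member, Ret in MSA striatum, and 0 in the other 5 comparisons.

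Bdnf was lower on PLX5622 than on placebo chow in each of the 6 pairs of groups, without passing the threshold in any. In MSA cortex it was 14.7, 15.6 and 21.5 CPM on PLX5622, against 19.4, 27.8 and 36.7 CPM on placebo chow (log2 change -0.70 ± 0.30, adjusted p = 0.938, edgeR). In MSA corpus callosum it was 8.70 and 9.17 CPM on PLX5622, against 8.87 and 21.8 CPM on placebo chow (-0.86 ± 0.50, adjusted p = 0.599). In MSA striatum it was 0 and 0.814 CPM on PLX5622, against 1.62, 1.92 and 5.20 CPM on placebo chow (-2.62 ± 1.07, adjusted p = 0.327). The MSA groups overlapped in cortex and corpus callosum and were apart in striatum, where the counts were few. Bdnf passed the striatal filter only through the MSA placebo group, so this striatal change and its p are a description. Of the 57 other pathway genes, 16 were also apart in that comparison, and the share over all genes was not computed. Control mice had changes of -0.12 ± 0.30 in cortex, -0.13 ± 0.45 in corpus callosum and -0.84 ± 1.17 in striatum. The difference between genotypes in the diet effect was -0.58 ± 0.43, -0.73 ± 0.67 and -1.78 ± 1.63 in these regions, with adjusted p of 0.916, 0.959 and 0.820, so the larger values in MSA mice are not shown to differ from those in controls. The cortical neuron markers were also lower on PLX5622 in MSA corpus callosum, at 1166 and 1206 CPM against 1995 and 1727 CPM on placebo chow. In MSA striatum they summed to 112 and 169 CPM on PLX5622, against 1052, 202 and 134 CPM on placebo chow, and the 5.20 CPM of Bdnf is from the library with 1052. In MSA cortex they overlapped, at 2498, 2455 and 2977 CPM on PLX5622 against 2827, 2917 and 2724 CPM on placebo chow. Their part in the Bdnf values was not tested.

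Averaged over the 3 regions, 0 members were called for PLX5622 against placebo chow by edgeR (2.15% of all genes called; 1 member under an unadjusted p of 0.05, as were 11.8% of all genes). That member was Bdnf, at -0.87 ± 0.26 on the log2 scale (unadjusted p = 0.00236, adjusted p = 0.0892). DESeq2 called it (adjusted p = 0.0146). Its average includes the MSA corpus callosum and MSA striatum groups whose cortical neuron markers are given above. The average weighs every pair of groups alike, and the largest change was in MSA striatum. Striatal Bdnf rests on 0 to 32 counts a library (median 6), so a shift shared by the 3 regions is not shown. Leaving out 1 library moved the edgeR adjusted p between 0.0190, without MSA striatum PLX5622 3, and 0.456, without control striatum placebo 1; it was called in 4 of those 30 fits, the others being without control corpus callosum PLX5622 2 (0.0356), MSA corpus callosum placebo 1 (0.0497) and control striatum placebo 2 (0.0378). Among the other pathway genes 1 of 53 was called for the diet, Mmp2, a matrix protease that can cleave pro-neurotrophins. It averaged 2.24 CPM on PLX5622 against 4.39 CPM on placebo chow (edgeR, adjusted p = 0.000860). Both MSA striatum PLX5622 libraries had 0 counts, so no fitted fold is given. In sorted microglia Mmp2 averaged 111 CPM in MSA and 174 CPM in control libraries. The part of microglial RNA in its diet change was not tested.

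The genotype comparisons asked what the oligodendrocyte transgene changed. No member was called in any region. In cortex 0 members were called on PLX5622 (0.158% of all genes; 0 members under an unadjusted p of 0.05) and 0 on placebo chow (0%; 0 members). In corpus callosum 0 were called on PLX5622 (0.195%; 0 members) and 0 on placebo chow (0.321%; 1 member, Gfra1, with 8.53% of all genes under 0.05). In striatum 0 were called on PLX5622 (0.222%; 0 members) and 0 on placebo chow (0.0336%; 4 members, with 3.75% of all genes under 0.05). The interaction of genotype and diet gave 0 called members in cortex (0.0959%; 0 members), corpus callosum (0.264%; 0 members) and striatum (0.0874%; 1 member, Ret, with 5.00% of all genes under 0.05). DESeq2 called 0 members in each of these 9 comparisons, but gave no adjusted p for Bdnf in striatum on placebo chow.

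Gfra1 was higher in MSA than in control mice in all 6 pairs of groups, none of them past the threshold. In cortex it was 45.1, 32.7 and 55.5 CPM in MSA mice on PLX5622 against 26.4, 48.6 and 28.1 CPM in controls on PLX5622, and 36.8, 31.9 and 67.9 CPM in MSA mice on placebo chow against 39.7, 28.7 and 23.1 CPM in controls on placebo chow. In corpus callosum it was 48.5 and 92.0 CPM in MSA mice on PLX5622 against 46.6 and 37.9 CPM in controls on PLX5622, and 86.2 and 72.5 CPM in MSA mice on placebo chow against 57.4, 41.2 and 42.6 CPM in controls on placebo chow. In striatum it was 64.1 and 68.2 CPM in MSA mice on PLX5622 against 57.7 and 43.9 CPM in controls on PLX5622, and 91.9, 64.0 and 64.8 CPM in MSA mice on placebo chow against 62.0 and 30.8 CPM in controls on placebo chow. The groups overlapped in cortex and were apart in corpus callosum and striatum on both diets. Of the 57 other pathway genes, 10 were also apart in corpus callosum on PLX5622 and 13 on placebo chow, in either direction. In striatum 25 were apart on PLX5622 and 11 on placebo chow. Groups this small are often apart, so the lack of overlap is a description, and its share over all genes was not computed. The log2 changes were 0.34 ± 0.35 and 0.57 ± 0.35 in cortex on PLX5622 and placebo chow, 0.66 ± 0.34 and 0.77 ± 0.30 in corpus callosum, and 0.39 ± 0.31 and 0.69 ± 0.28 in striatum, with adjusted p of 0.512 or more by edgeR. In corpus callosum on placebo chow, markers of other cell types were also higher in MSA mice without overlap: choroid plexus markers summed to 8284 and 3217 CPM in MSA mice against 255 to 350 CPM in controls, and meningeal fibroblast markers to 502 and 263 CPM against 76.6 to 86.1 CPM. Ependymal markers were 75.0 and 75.3 CPM in MSA mice against at most 38.8 CPM in controls, and astrocyte markers 7263 and 6520 CPM against 5723 to 6197 CPM. On PLX5622 the choroid plexus markers ran the other way, at 416 and 468 CPM in MSA mice against 1508 and 1409 CPM in controls. The part of these markers in the Gfra1 values was not tested.

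Averaged over the 3 regions, 0 members were called for MSA against control (1.49% of all genes called; 2 members, Gfra1 and Ngfr, under an unadjusted p of 0.05, as were 8.50% of all genes). Same-numbered libraries of different regions may share an animal, in which case the p-values over the 3 regions are too small, for the diet as for the genotype. Gfra1 averaged 61.5 ± 19.8 CPM in MSA libraries and 41.0 ± 12.1 CPM in control libraries (SD, n = 15 each), a log2 change of 0.56 ± 0.15 just short of the threshold by edgeR (adjusted p = 0.0518). DESeq2 called it (adjusted p = 0.0175). With 1 library left out, the edgeR adjusted p ran from 0.0197 to 0.184, and it was called in 6 of 30 fits (those without control cortex placebo 1, control cortex PLX5622 2, MSA cortex placebo 2, MSA cortex PLX5622 2, MSA corpus callosum PLX5622 1 or control striatum placebo 1). Ngfr averaged 7.30 ± 5.92 CPM in MSA libraries and 4.00 ± 3.97 CPM in control libraries, with a change of 0.85 ± 0.38 and an adjusted p of 0.512.

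**Figure D4:**
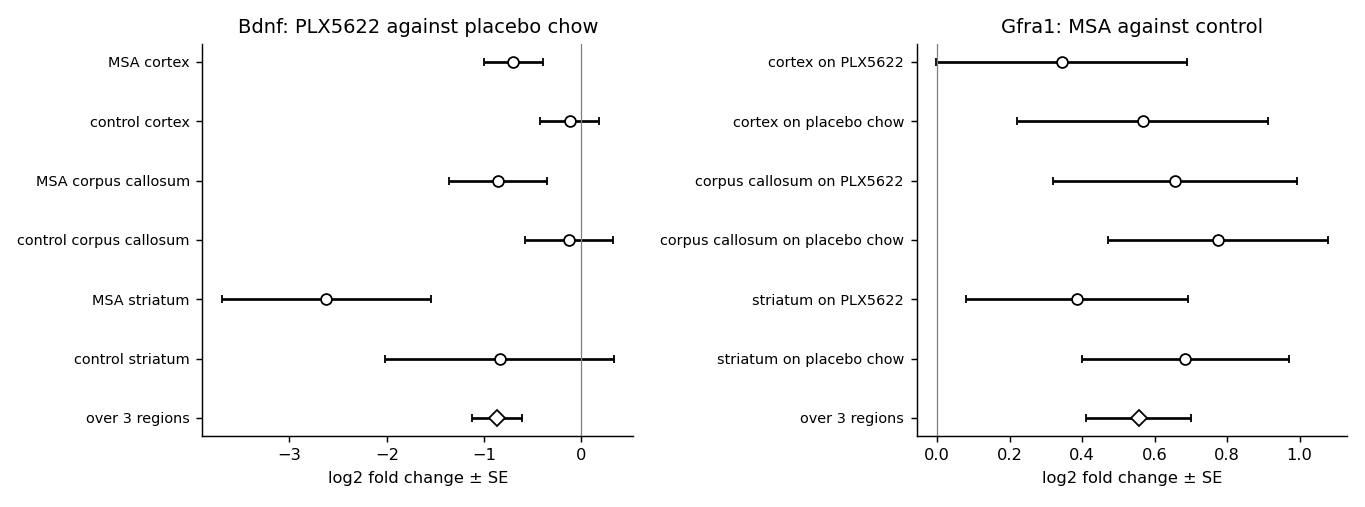
Log2 fold change with its standard error (edgeR) for Bdnf on PLX5622 against placebo chow (left) and Gfra1 in MSA against control mice (right), in each pair of groups (circles) and averaged over the 3 regions (diamonds). All Bdnf points lie below 0 and all Gfra1 points above it, and none has an adjusted p under 0.05.

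In striatum of MSA mice on placebo chow, 4 members differed widely between libraries, and 2 different sets of libraries held the high values. Ret was 0.966 and 1.63 CPM in MSA mice on PLX5622 and 2.19 and 2.87 CPM in controls on PLX5622, against 1.30, 20.6 and 15.8 CPM in MSA mice on placebo chow and 3.69 and 2.31 CPM in controls on placebo chow. Libraries 2 and 3 of the MSA placebo group stood far above the other 7, while library 1 lay among them. The change was -3.21 ± 0.94 for PLX5622 against placebo chow in MSA striatum (edgeR, unadjusted p = 0.00594, adjusted p = 0.234) and 2.10 ± 0.83 for MSA against control on placebo chow (adjusted p = 0.999). The first was called by DESeq2 (adjusted p = 0.0103) and by edgeR without MSA striatum placebo library 1 (adjusted p = 0.00695), and over all the libraries left out its adjusted p ran up to 0.593. The choroid plexus markers of the 3 MSA placebo libraries summed to 68.8, 457 and 3907 CPM, and Chat was 19.2, 47.0 and 51.9 CPM, so within that group Ret was high in the libraries with more of both. The endothelial markers also followed Ret in that group, at 59.7, 218 and 153 CPM, and were 79.6 and 69.5 CPM in MSA mice on PLX5622. MSA striatum PLX5622 library 2 had 528 CPM of the choroid plexus markers with the lowest Ret (0.966 CPM) and 11.0 CPM of Chat. Their part in the Ret values was not tested.

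Ngfr shared the pattern of Ret at a smaller scale, at 4.06 and 4.48 CPM in MSA mice on PLX5622 and 3.13 and 3.08 CPM in controls on PLX5622, against 4.39, 7.52 and 10.0 CPM in MSA mice on placebo chow and 3.42 and 3.46 CPM in controls on placebo chow. MSA placebo libraries were all above the controls on placebo chow (log2 change 1.10 ± 0.42, adjusted p = 0.999, edgeR). In that comparison 11 of the 57 other pathway genes were apart as well, in either direction, and the share over all genes was not computed. Bdnf and Gfra2 were instead highest in library 1: Gfra2 was 7.15 and 9.09 CPM in MSA mice on PLX5622 and 5.84 and 9.68 CPM in controls on PLX5622, against 34.5, 12.8 and 10.3 CPM in MSA mice on placebo chow and 9.74 and 7.46 CPM in controls on placebo chow. The change in Gfra2 was -1.20 ± 0.49 for the diet in MSA mice (adjusted p = 0.327) and 1.17 ± 0.48 for MSA against control on placebo chow (adjusted p = 0.999). Gdnf and Ntrk2 had no call in striatum either, with log2 changes between -0.44 and 0.13 for Gdnf and between -0.02 and 0.07 for Ntrk2 over the 4 diet and genotype comparisons.

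**Figure D5:**
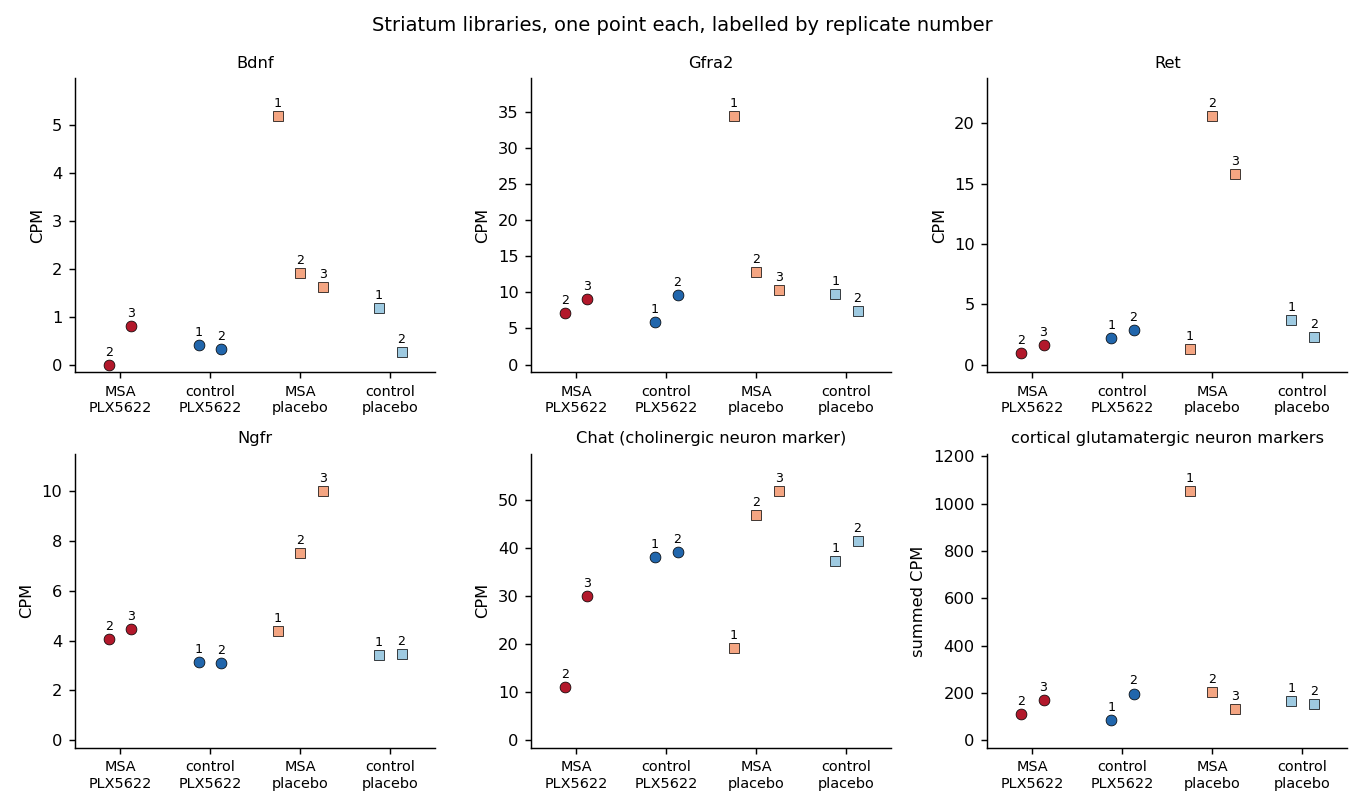
Bdnf, Gfra2, Ret, Ngfr and the cholinergic marker Chat in CPM, and the summed CPM of 9 cortical glutamatergic neuron markers, in the 9 striatum libraries by group, each point labelled with its replicate number. Library 1 of the MSA placebo group is highest for Bdnf (5.20), Gfra2 (34.5) and the cortical markers (1052), whereas libraries 2 and 3 are highest for Ret (20.6 and 15.8), Ngfr and Chat.

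In sorted microglia nearly all 9 genes were at or near the limit of detection. Bdnf had 12 counts over the 6 libraries, or 0.241 CPM (95% exact interval 0.125 to 0.421), Ngfr 11, Ntrk3 and Gfra1 6 each, and Gdnf and Ret 1 each. Ntf3 had none, which allows up to 0.0603 CPM at 3 counts over the 6 libraries (upper end of the 95% exact interval 0.0741 CPM). Per library Bdnf was 0.277, 0.340 and 0.504 CPM in MSA microglia against 0, 0.122 and 0.248 CPM in control microglia. These values rest on 0 to 3 counts a library and were not tested. Summed, the microglial Bdnf level was 0.0110 of the cortical one (0.00566 to 0.0192).

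The 2 members that could be read in microglia did not differ between genotypes beyond their spread. Ntrk2 was 8.31, 9.06 and 7.56 CPM in MSA microglia against 5.22, 11.4 and 7.68 CPM in control microglia (log2 change 0.00 ± 0.26, adjusted p = 1, edgeR). Gfra2 was 1.52, 1.92 and 0.672 CPM in MSA microglia against 1.34, 0.856 and 0.991 CPM in control microglia (0.39 ± 0.46, adjusted p = 0.816). With 2 members tested, 0 were called (0.610% of all genes called; 0 members under an unadjusted p of 0.05; 0 by DESeq2). The microglia libraries also held 180 to 236 CPM of 8 astrocyte markers, which summed to 3969 to 8116 CPM in cortex, and 110 to 139 CPM of oligodendrocyte markers; their part in the low Ntrk2 and Gfra2 counts was not tested. Of the other pathway genes, 31 passed the filter and 1 was called: Mmp2 was 91.1, 115 and 127 CPM in MSA microglia against 166, 164 and 190 CPM in control microglia (-0.69 ± 0.11, adjusted p = 0.0284), with no overlap.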

How the data were processed

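Poly(A) RNA-seq libraries were used, 30 of bulk tissue and 6 of sorted microglia. The submitters' processing notes name the tools STAR, HOMER and DESeq2 and the build mm10; versions, counting settings and any use of strand are not stated in the notes. The values used are raw counts as the authors deposited them, whole numbers for each gene with 1 RefSeq transcript listed; a TPM table was not used. The 9 members, the gene lists and the comparisons were chosen with earlier results of these data known.

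Libraries were grouped by title. After filterByExpr (minimum count 10) and TMM scaling, edgeR 4.0.16 in R 4.3.3 gave the tests (robust quasi-likelihood F test, 2-sided), in 1 fit per region with its 4 groups, 1 for microglia and 1 over the 30 bulk libraries; region contrasts averaged the 4 groups of genotype and diet. Genes tested numbered 14600 in cortex, 15881 in corpus callosum, 14872 in striatum, 11810 in microglia and 16080 over bulk. CPM divides by all assigned counts, and CPM per kb by the listed transcript's length. Assigned counts (M, 1e+06) ran from 4.36 to 9.79 M for cortex, from 4.59 to 28.6 M for corpus callosum, from 5.18 to 11.3 M for striatum and from 5.95 to 12.1 M for microglia. Intervals from summed counts are exact at 95%. Within groups no 2 libraries were copies: over 30 pairs, chi-square per degree of freedom was 4.98 to 142. Scripts were tested on simulated data.

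The named genes are all 9 members, up to 6 called pathway genes a comparison by smallest p (some results are not reported here), and the leading gene by likeness among genes with mean log2 CPM of at least 2. Sequences come from RefSeq promoters (GRCm38.p6) and GENCODE transcripts (GRCm38). The alternatives tried were a replicate block, DESeq2 1.42.0, RLE scaling, all genes kept whatever their counts, each library left out in turn, and both control striatum PLX5622 libraries left out. Leaving out the libraries under 70% assigned, and MSA striatum placebo 1 with both control striatum PLX5622 libraries, were chosen after seeing the data.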

Additional observations from a re-analysis of the deposited data

How the results depend on the processing

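The number of members called changed with the tool in 3 comparisons that had 0 by edgeR: DESeq2 called 1 for PLX5622 in MSA striatum (Ret), 1 for PLX5622 over the 3 regions (Bdnf) and 1 for MSA against control over the 3 regions (Gfra1), and leaving out 1 library gave 0 to 1 in each. For corpus callosum against cortex the 5 calls became 4 with RLE, 6 with DESeq2 and 4 with the replicate block, and 2 to 6 with 1 library left out. The range was 5 to 6 for striatum against cortex and 5 to 7 for striatum against corpus callosum. All called changes of striatum against cortex kept their side of the threshold in every alternative run. For Gdnf in corpus callosum against cortex, the log2 change was 1.67 ± 0.58 with all libraries, -0.054 without control corpus callosum PLX5622 library 1 (the only called change that turned sign), up to 2.09 with another library left out, and 1.28 (adjusted p = 0.127) with the replicate block. Uncalled values changed sign in 156 of 2842 alternatives. The cause of these shifts was not tested. Within a region, pairs of libraries whose deviations correlated over 0.1 were counted for same and for other replicate numbers. They were 6 of 18 against 12 of 36 for cortex and 1 of 10 against 5 of 20 for corpus callosum. For microglia they were 1 of 3 against 0 of 6. In striatum they were 6 of 10 (median 0.113) against 4 of 20 (median -0.042), a hint of a link by number that the labels do not explain. In groups of 2 libraries the deviations mirror each other, so these pairs are not independent. Across regions of the same group 13 of 25 same-numbered pairs were over 0.1 (median 0.108) against 10 of 49 with other numbers (median -0.069). For cortex and corpus callosum the same-numbered pairs were 0.426, 0.229 and 0.509 in controls on placebo chow and -0.437 and -0.064 in controls on PLX5622. They were 0.069 and 0.048 in MSA mice on placebo chow and 0.108 and 0.287 in MSA mice on PLX5622. Groups of 2 libraries mirror each other here too. This is at most a hint that some libraries share an animal, which the labels do not state and which was not tested. Leaving out MSA striatum placebo 1 with both control striatum PLX5622 libraries kept 5 calls in each region contrast, and leaving out only those control libraries kept 0 in the striatum comparisons that could be made. The replicate block changed no other member's call. Counts over all genes are fragile in the small groups: for PLX5622 in MSA striatum 11 genes were called by edgeR, 268 by DESeq2 and 1349 with the block, and 0 to 824 with 1 library left out; for MSA against control striatum on PLX5622 the counts were 33, 87 and 1908. Depth limits the reading of Ntf3, Gdnf in cortex and striatal Bdnf, which rest on few counts a library.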

Other observations

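Ngfr was set beside the cholinergic gene Chat within each region, a relation chosen after its values were seen, so its p-values are a description. In corpus callosum (9 libraries) Pearson's r of log2(CPM + 0.5) was 0.809 (exact permutation p = 0.0134, 0.0403 adjusted over 6 relations computed, of which those with Chat are given) and Spearman's rho 0.650 (p = 0.0666, adjusted 0.191). Without the 2 libraries farthest from the median r was 0.729. In cortex (12 libraries) r was 0.557 (permutation p = 0.0593, adjusted 0.101) and rho 0.420 (permutation p = 0.177, adjusted 0.265), with an r of 0.0487 without 2 libraries. In striatum (9 libraries) r was 0.293 (exact permutation p = 0.454, adjusted 0.454) and rho 0.233 (exact permutation p = 0.552, adjusted 0.552), with an r of 0.664 without 2 libraries. The rank correlations with Chat did not pass the correction in any region. The permutations exchanged all libraries of a region across its genotype and diet groups, so differences between those groups were not set apart.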
